A study of Mus musculus with 10 samples.

Results

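Nuclear receptors are transcription factors that bind DNA and, in many cases, a small lipid-soluble ligand such as a retinoid, a vitamin D metabolite, a bile acid, a fatty acid or a steroid. Many of them bind as dimers with a retinoid X receptor, the shared partner encoded by Rxra, Rxrb and Rxrg. In the intestinal epithelium the family is known for sensing bile acids, lipids and xenobiotics and for handling calcium and salt. The open chromatin at 44 genes of this family was described here in mouse colon organoids. The 44 genes were taken from a list of family members by gene symbol and not by their values, with Hnf4a and Hnf4g left out, and are 44 of 21938 protein-coding genes.

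Organoids were grown from whole colon of Villin-Cre Ahr fl/fl mice, in which the aryl hydrocarbon receptor gene Ahr is deleted in Villin-expressing epithelium (AHR KO), and of littermates without the deletion (WT), all on a C57BL/6 background. The labels do not give the age of the animals or say whether replicates came from separate animals, so that p-values measure the spread between these samples only. ATAC-seq, in which a transposase cuts accessible DNA, was run on 50000 sorted cells per sample from organoids kept in WENR medium or moved for 4 days to medium without Wnt3a (d4 ENR). WENR also held SB202190, A83-01 and nicotinamide, so the media differed in more than Wnt3a. There were 2 WT and 3 AHR KO samples in WENR, and 3 WT and 2 AHR KO samples in d4 ENR.

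The libraries held 30354729 to 49126792 fragments and 33433 to 65308 broad peaks. The d4 ENR libraries had shorter lists than the WENR libraries: peaks covered 61.9 to 67.2 Mb in WENR, 26.2 to 41.0 Mb in WT d4 ENR, and 46.6 and 50.1 Mb in AHR KO d4 ENR. WT d4 ENR replicate 1 stood apart with the fewest peaks, 33433. The share of the fragment coverage that lay in peaks was 63.0% to 68.6% in WENR, 14.1%, 24.4% and 30.9% in WT d4 ENR, and 33.8% and 44.3% in AHR KO d4 ENR, so that this share moved with medium and, in d4 ENR, with genotype. Its part in the results was not tested. At Ahr, peaks covered 1216 to 2544 bases in WT and 3250 to 7017 bases in AHR KO libraries, without overlap. A peak list does not show whether an exon is deleted, so these values do not check the labels. All 7 epithelial markers had peaks in all 10 libraries, and their summed covered bases were 77295 to 91284 in WENR and 34071 to 69756 in d4 ENR. Of 5 fibroblast markers, 2 had peaks in all libraries and Col1a2, Dcn and Lum had none in any. Of 5 leukocyte markers, 2 had peaks in all libraries, and Cd3e had none in any. Of 4 endothelial markers 1 had peaks in all libraries. The summed covered bases of these last 3 lists were 2953 to 5118 in WENR and 915 to 4438 in d4 ENR.

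The measure used for each gene was the number of bases under peaks within the gene body and 5 kb on each side. As a share of this window, so that genes of different length can be set side by side, peaks in WENR covered most at Nr1d1 (30.5%), Rxrb (28.0%) and Thra (27.7%). Nr1d1 encodes a heme-binding repressor of the circadian clock and Thra a thyroid hormone receptor. The windows of Nr1d1 and Thra overlap, so that these genes share peaks. The share was lowest, among genes with a peak in every WENR library, at Esrrg (0.234%), which spans 606 kb and encodes an orphan estrogen-related receptor. Nr0b1, an atypical receptor without a DNA-binding domain, had no peak in any library. Nr0b2, its relative and a repressor in bile acid feedback, had a peak in AHR KO WENR replicate 2 (279 bases) and WT d4 ENR replicate 1 (646 bases) and in no other. The other 42 genes averaged at least 200 covered bases over the libraries and entered the tests, as did 16403 of all coding genes. Pgr, Rxrg, Esrrg and Nr2f1 reached this minimum through WENR alone, with 0 to 181 bases on average in d4 ENR, so that their difference between media was fixed by the filter and is given as a description without a test.

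**Figure D1:**
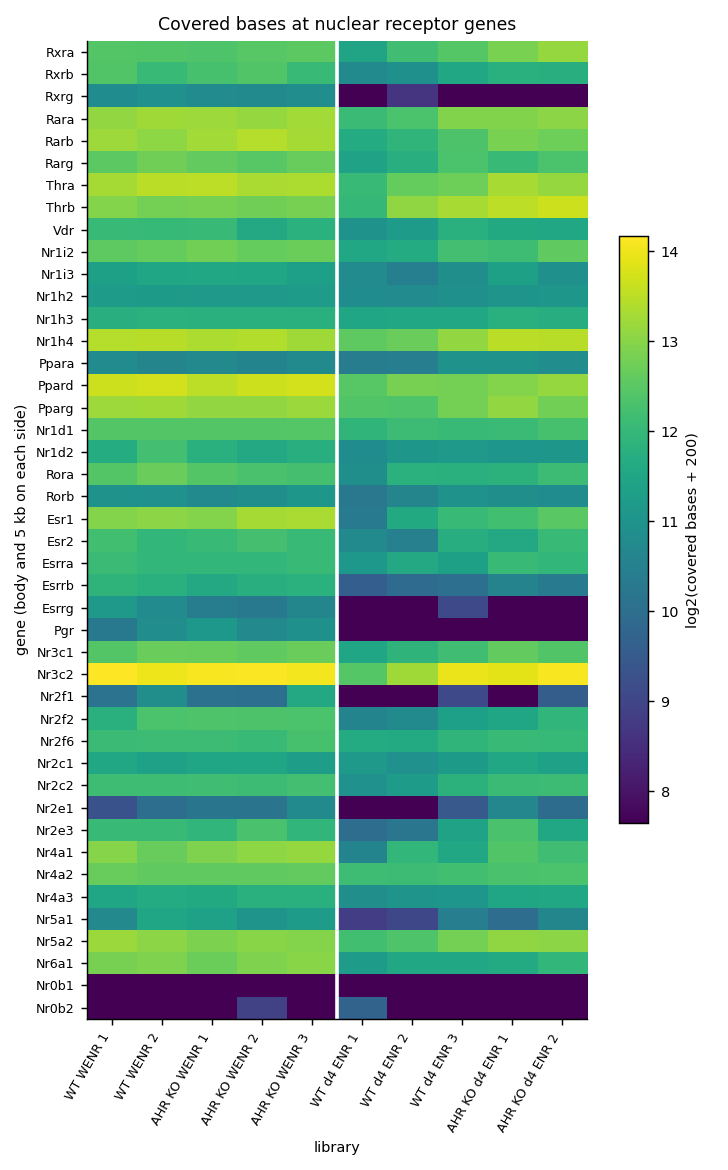
Covered bases at each of the 44 genes (rows, grouped by receptor type) in each of the 10 libraries (columns), as log2(covered bases + 200) by colour; the white line separates WENR from d4 ENR. Pgr, Rxrg and Esrrg are at or near the floor in d4 ENR, the rows of Thrb and Rxra reach their highest values in AHR KO d4 ENR, and Nr0b1 is at the floor throughout.

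Promoters, counted as 1 kb before to 100 bases after any annotated transcript start, carried a peak in all 10 libraries at 32 of the 44 genes. The number per library was 38 or 39 in WENR and 33 to 36 in d4 ENR. With all lists held to the same number of peaks, the numbers were 31 or 32 in WENR and 31 to 33 in d4 ENR. When only peaks with −log10 q of 5 or more were kept, they were 34 or 35 in WENR and 28 to 34 in d4 ENR. Nr0b1 and Nr2e3 had a promoter peak in no library. The promoters of Rxrg and Esrrb had a peak in each of the 5 WENR libraries and were without one in d4 ENR. The promoter of Pgr, the progesterone receptor gene, had one in 4 WENR libraries and likewise none in d4 ENR. In lists of equal length the promoters of Rxrg, Esrrb and Pgr had no peak in any library. The difference between media at these promoters therefore depends on list length. Among peaks with −log10 q of 5 or more, Rxrg kept 1, in AHR KO WENR replicate 3, and Esrrb and Pgr kept none.

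Peaks of the 10 libraries were merged into regions, of which 275 lay at the receptor genes: 180 in introns, 51 at promoters, 22 in exons and 22 between genes. A peak in all 10 libraries was found at 95 of the 275 regions (34.5%), against 36.4% of the 57741 regions at coding genes. Regions with a peak in all 5 WENR and no d4 ENR library numbered 11 (4%), against 5.21%. No region at the receptor genes had a peak in all 5 d4 ENR and no WENR library, a pattern found at 0.216% of regions at coding genes. In d4 ENR, 9 regions (3.27%) had a peak in both AHR KO and no WT library, against 2.53%, and 1 had a peak in all 3 WT and no AHR KO library, against 0.0623%. In WENR, 2 regions, in introns of Rara (chr11:98947986-98948513) and Rarb (chr14:16648578-16649122), had a peak in all AHR KO and no WT library, against 1.07%. The converse was found at 3 regions (1.09%), at Esrrg (chr1:187604019-187604418), Rora (chr9:69110023-69110795) and Pparg (chr6:115373254-115373769), against 0.712%. The shares at receptor genes were near those at all coding genes or rested on 3 or fewer regions. The region with the highest mean fold enrichment over libraries (7.44) was the promoter of Nr1h3 at chr2:91202193-91203418, a gene that encodes an oxysterol receptor; it had a peak in every library, lowest in WT d4 ENR replicate 1 (4.57) and between 6.79 and 8.38 in the others.

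The 11 regions found in WENR libraries alone were led by one downstream of Nr4a2, an immediate-early orphan receptor gene, at chr2:57102281-57103696 and 10084 bases from its nearest annotated start. Its fold enrichment, the pileup over the local background, was 3.93 and 4.84 in WT WENR and 4.9, 4.93 and 5.34 in AHR KO WENR, with no peak in the 5 d4 ENR libraries. The next 3 were a promoter region in the flank of Nr2f1 (chr13:78201369-78202150, mean 4.12), which encodes an orphan COUP-type receptor, a promoter region in the flank of Rarg (chr15:102231946-102233326, mean 3.64), where a neighbouring gene starts, and an intron of Rarb (chr14:16735157-16735741, mean 3.41). Rarg and Rarb encode retinoic acid receptors. The other 7 lay at Rxrg, Pgr, Esrrb, Esrrg, Nr6a1, Pparg and Ppard, 1 region each. In the central 200 bases of these 11 regions the median GC content was 53.5% and ranged from 33% to 65%, against a median of 46% for the 3011 such regions at coding genes.

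The 9 regions with a peak in both AHR KO and no WT d4 ENR library lay at Rarb (3), Esrrb, Rxra, Nr2e1, Nr2e3 and Nr3c2 (1 each) and in the shared flank of Nr5a1 and Nr6a1. The region at Esrrb, an intron at chr12:86401941-86403324, was highest: fold enrichment was 4.28 and 4.69 in WT WENR, 5.15, 4.37 and 5.33 in AHR KO WENR, and 2.65 and 2.61 in AHR KO d4 ENR. It was therefore open in WENR in both genotypes and called in d4 ENR in AHR KO alone. An intron of Rarb at chr14:16618350-16618681 had a peak in AHR KO d4 ENR alone, at 3.71 and 3.17, as did a second one at chr14:16686993-16687392 (3.28 and 3.32) and an intron of Nr3c2 at chr8:77231789-77232087 (2.55 and 3.32). The only region with the opposite pattern was also in an intron of Rarb (chr14:16447727-16449010), with a peak in all 5 WENR libraries (2.17 to 2.73) and all 3 WT d4 ENR libraries (2.62, 3.02 and 3.34).

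Sequences are shown for the 2 highest intronic or intergenic regions without an exon in their centre in each of 3 patterns: a peak in WENR alone (Nr4a2 and Rarb), a peak in AHR KO and not WT in d4 ENR (Esrrb and Rarb), and a peak in at least 3 d4 ENR and no WENR library (Thrb). Each is the central 200 bases of the region, plus strand, 5′ to 3′, from RefSeq GRCm38. Capitals mark matches on either strand to AGGTCA, the half-site that many nuclear receptors bind, GCGTG, the core of the AHR element, TGANTCA (AP-1), GGAATG (TEAD) or TTTATNG (CDX).
Nr4a2, chr2:57102889-57103088: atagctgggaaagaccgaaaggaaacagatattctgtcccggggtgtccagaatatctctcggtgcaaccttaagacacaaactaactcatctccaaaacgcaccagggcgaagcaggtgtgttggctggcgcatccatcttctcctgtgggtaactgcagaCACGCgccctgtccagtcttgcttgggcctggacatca
Rarb, chr14:16735350-16735549: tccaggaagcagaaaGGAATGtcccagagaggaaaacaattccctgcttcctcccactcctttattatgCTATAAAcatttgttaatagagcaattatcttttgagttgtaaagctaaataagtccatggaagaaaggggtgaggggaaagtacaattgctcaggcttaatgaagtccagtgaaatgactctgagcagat
Esrrb, chr12:86402533-86402732: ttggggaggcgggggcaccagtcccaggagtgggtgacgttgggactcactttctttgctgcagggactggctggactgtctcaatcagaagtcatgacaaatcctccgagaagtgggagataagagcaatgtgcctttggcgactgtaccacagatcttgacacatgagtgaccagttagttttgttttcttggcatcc
Rarb, chr14:16618416-16618615: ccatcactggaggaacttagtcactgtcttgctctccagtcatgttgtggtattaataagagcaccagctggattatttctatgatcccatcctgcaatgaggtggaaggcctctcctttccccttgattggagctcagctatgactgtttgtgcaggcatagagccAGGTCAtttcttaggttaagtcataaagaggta
Thrb, chr14:17756861-17757060: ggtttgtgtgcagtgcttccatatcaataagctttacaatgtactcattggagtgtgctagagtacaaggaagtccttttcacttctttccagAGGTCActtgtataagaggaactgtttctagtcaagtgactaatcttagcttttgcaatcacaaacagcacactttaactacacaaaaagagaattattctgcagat
Thrb, chr14:17831721-17831920: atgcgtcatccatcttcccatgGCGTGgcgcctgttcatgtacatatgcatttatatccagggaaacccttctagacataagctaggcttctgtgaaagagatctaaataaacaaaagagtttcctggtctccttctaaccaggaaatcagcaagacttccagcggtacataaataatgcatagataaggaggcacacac

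The Nr4a2 window held 1 AHR core on the minus strand and no half-site. The Rarb window open in WENR held 1 TEAD and 1 CDX match. The Esrrb window held none of the 5 motifs, while the Rarb window open in AHR KO d4 ENR and the first Thrb window each held 1 AGGTCA and the second Thrb window 1 GCGTG. Over the central 200 bases of the regions at receptor genes, AGGTCA was present in 44 of 275 (16%) and GCGTG in 50 (18.2%), against 12.9% and 17.7% of the 57741 regions at coding genes. TGANTCA was present in 12%, GGAATG in 9.45% and TTTATNG in 14.2%, against 12.4%, 11.7% and 12.8%. A match to these letters is a description of the sequence and not a bound site.

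Covered bases were lower in d4 ENR than in WENR at most receptor genes, as at most genes. In organoids of mixed cells, fewer open cells and less openness per cell cannot be told apart. With the limma test on log2(covered bases + 200), adjusted by Benjamini-Hochberg over 16403 genes, 36 of the 42 receptor genes were lower in WT d4 ENR than in WT WENR and none was higher, where 66.9% of all genes were lower. Without the 4 genes that entered through WENR alone, a restriction added after the data were seen, 32 of 38 were lower, against 66.3% of the genes with 200 bases on average in d4 ENR too. The 6 not called were Nr2e1, Nr3c2, Ppara, Rorb, Rxra and Thrb. In AHR KO, 7 of 42 were lower and none higher, against 13.4% of all genes lower, and without the same 4 genes 4 of 38 were, against 11.1%. The median gene had a log2 difference of -0.67 in WT and -0.23 in AHR KO, and the median receptor gene -0.81 and -0.24. In WT, 37 of the 42 genes had every WENR library above every d4 ENR library, against 84.4% of all genes, and in AHR KO 27 did, against 57.7%. Over both genotypes 21 did, against 48.5%. Each of these counts includes Pgr, Rxrg, Esrrg and Nr2f1, whose difference between media was fixed by the filter. Relative to the median gene of each library (libraries centred), 8 receptor genes were lower and 3 higher in WT, against 16.9% and 16.3% of all genes, and 5 were lower and 5 higher in AHR KO, against 8.02% and 3.36%. Without the 4 genes that entered through WENR alone the numbers lower were 5 of 38 in WT and 2 of 38 in AHR KO, against 15.1% and 5.9%.

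Beside Pgr, Rxrg and Esrrg, which entered through WENR alone, the genes lower in d4 ENR in both genotypes were Esrrb, Nr6a1, Ppard and Nr1d2, 4 of 38 where 10.8% of such genes were. After centring Esrrb and Nr6a1 were lower in both (4.39% of such genes were), and Ppara alone was higher in both, where 2.11% were. With all lists held to the same number of peaks Ppard alone of these genes was lower in both, and Ppara turned slightly negative in AHR KO and was called in neither (-0.09 ± 0.18 in WT and -0.07 ± 0.18 in AHR KO, limma, adjusted p = 0.66 and 0.89).

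Peaks at Pgr covered 1046 and 1648 bases in WT WENR and 2021, 1466 and 1744 bases in AHR KO WENR, and none was listed in any of the 5 d4 ENR libraries. At Rxrg, the retinoid X receptor of narrowest known expression, they covered 1590 and 1753 bases in WT WENR and 1585, 1534 and 1644 bases in AHR KO WENR. In d4 ENR 1 library had a peak at Rxrg, WT d4 ENR replicate 2, with 203 bases. At Esrrg the WENR values were 2088 and 1580 bases in WT and 1130, 1036 and 1381 bases in AHR KO, and again 1 d4 ENR library had a peak, WT d4 ENR replicate 3, with 347 bases. All WENR libraries lay above all d4 ENR libraries at the 3 genes. The log2 differences were -2.92 ± 0.22 (SE) in WT and -3.27 ± 0.22 in AHR KO for Pgr, -2.89 ± 0.30 and -3.16 ± 0.30 for Rxrg, and -2.85 ± 0.42 and -2.78 ± 0.42 for Esrrg. Since d4 ENR values were at or near 0, their size depends on the 200 bases that were added, and no test is given for these genes. The fold enrichment of these peaks in WENR was low, from 2.58 to 3.17 at Pgr and from 3.06 to 4.08 at Esrrg.

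Esrrb, an estrogen-related receptor known from pluripotent cells, had 3574 and 3323 covered bases in WT WENR and 2857, 3230 and 3403 in AHR KO WENR. In d4 ENR it had 569, 767 and 843 bases in WT and 1298 and 1072 in AHR KO. Nr6a1, germ cell nuclear factor, had 7096 and 7466 bases in WT WENR, 6507, 7471 and 7957 in AHR KO WENR, 2185, 2824 and 2741 in WT d4 ENR and 2971 and 3757 in AHR KO d4 ENR. The media did not overlap at either gene. The log2 differences were -1.99 ± 0.15 in WT and -1.28 ± 0.15 in AHR KO at Esrrb, and -1.43 ± 0.15 and -1.08 ± 0.15 at Nr6a1.

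**Figure D2:**
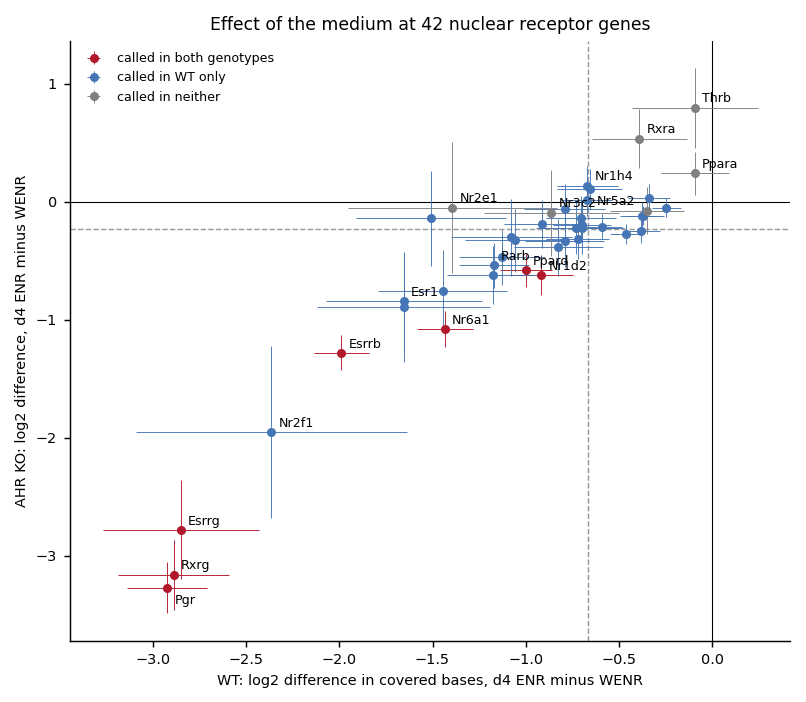
Log2 difference in covered bases between d4 ENR and WENR at the 42 tested receptor genes in WT (x axis) and AHR KO (y axis), with SE bars; dashed lines mark the median of the 16403 genes tested, -0.67 and -0.23. Pgr, Rxrg and Esrrg lie near -3 on both axes, and Thrb, Rxra and Ppara are the highest in AHR KO.

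Among peroxisome proliferator-activated receptors, which bind fatty acids, Ppard had 12831 and 13308 covered bases in WT WENR and 11525, 12768 and 13273 in AHR KO WENR, and 5459, 7076 and 6914 in WT d4 ENR and 7770 and 8850 in AHR KO d4 ENR. Its log2 differences were -0.998 ± 0.141 in WT and -0.581 ± 0.141 in AHR KO (limma, adjusted p = 0.00114 and 0.0313). After centring it was lower in WT (-0.34 ± 0.10) and was not called in AHR KO (-0.31 ± 0.10, limma, adjusted p = 0.088). Pparg had 9353 and 9391 bases in WT WENR, 8674, 8637 and 9031 in AHR KO WENR, 5228, 5080 and 6969 in WT d4 ENR and 8564 and 6782 in AHR KO d4 ENR. It was lower in WT (-0.70 ± 0.16), near the median gene, and its difference in AHR KO was -0.20 ± 0.16. Ppara had 1557 and 1362 bases in WT WENR, 1487, 1330 and 1529 in AHR KO WENR, 1125, 1189 and 1838 in WT d4 ENR and 1851 and 1649 in AHR KO d4 ENR. Its differences before centring were -0.09 ± 0.18 and 0.24 ± 0.18, and after centring 0.57 ± 0.13 and 0.51 ± 0.13. A region at another annotated start of Ppara (chr15:85772018-85772503) had a peak in 3 d4 ENR and no WENR library.

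Of the receptors for bile acids, vitamin D and xenobiotics, Nr1h4 encodes the bile acid receptor FXR, Vdr the vitamin D receptor and Nr1i2 the xenobiotic receptor PXR. Vdr had 4022 and 3911 covered bases in WT WENR, 4031, 2850 and 3386 in AHR KO WENR, 1809, 2217 and 3300 in WT d4 ENR and 2929 and 2832 in AHR KO d4 ENR. Nr1i2 had 5801 and 6160, 6776, 6163 and 6421, 2732, 3038 and 4586, and 4342 and 5909 bases in the same order. WT d4 ENR lay below WT WENR at both genes, and in AHR KO the media overlapped at Vdr. Nr1h4, Vdr and Nr1i2 were all lower in WT d4 ENR, with log2 differences of -0.67 ± 0.16, -0.70 ± 0.23 and -0.79 ± 0.21. These values lie near the median gene of -0.67, and after centring none of the 3 was called in WT. In AHR KO the differences were 0.14 ± 0.16, -0.22 ± 0.23 and -0.34 ± 0.21. Nr5a2, the lipid-binding receptor LRH-1 of crypt and liver, was lower in WT (-0.66 ± 0.17) and had a difference of 0.11 ± 0.17 in AHR KO.

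Nr1h4 and Nr5a2 were the only 2 of the 42 genes at which every WT d4 ENR library lay below both WT WENR libraries while both AHR KO d4 ENR libraries lay above all AHR KO WENR libraries, where 2.24% of all genes did so. Nr1h4 had 10864 and 11136 bases in WT WENR, 5826, 6355 and 8640 in WT d4 ENR, 10360, 10634 and 9465 in AHR KO WENR and 11295 and 11054 in AHR KO d4 ENR. Nr5a2 had 9155 and 8213, 4465, 5124 and 6963, 7374, 8028 and 7785, and 8541 and 8150 bases in the same order. The test of the difference between genotypes in the effect of the medium was not passed at either gene (0.81 ± 0.23 and 0.77 ± 0.24, limma, adjusted p = 0.13 and 0.16). With lists of equal length it was passed at Nr5a2 (0.92 ± 0.15, limma, adjusted p = 0.021).

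**Figure D3:**
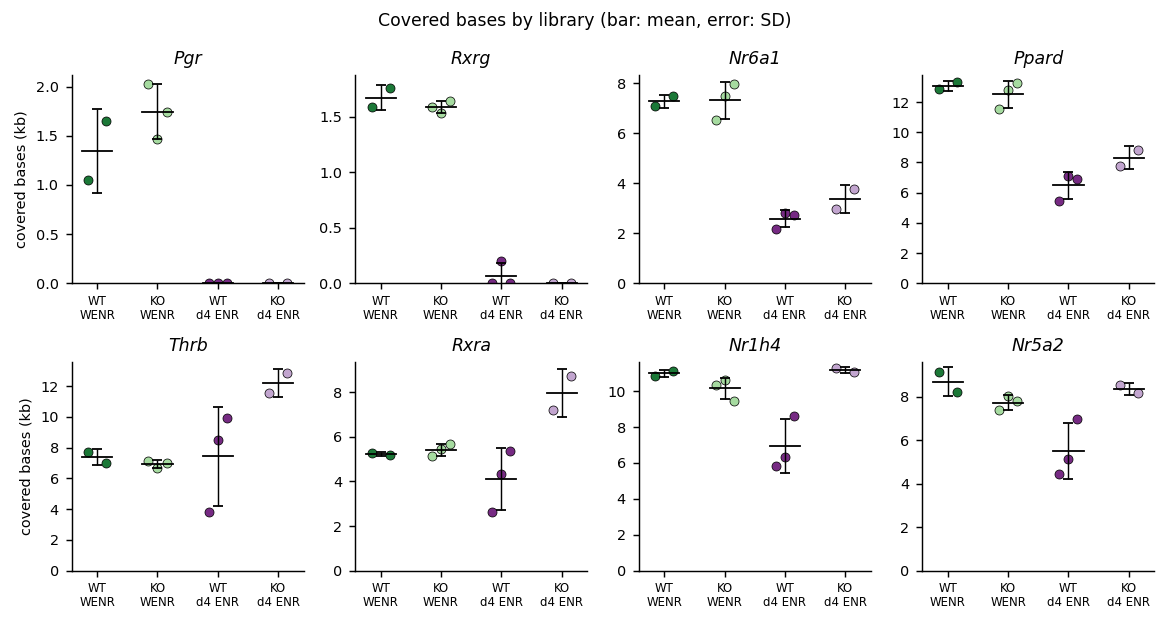
Covered bases (kb) at 8 receptor genes, 1 point per library, with the mean and SD of each group (n = 2 or 3; KO is AHR KO). The media are apart at Pgr, Rxrg, Nr6a1 and Ppard; at Thrb and Rxra both AHR KO d4 ENR points are the highest, and at Nr1h4 and Nr5a2 the WT d4 ENR points are the lowest.

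Thrb, which encodes thyroid hormone receptor beta, did not follow the general direction in covered bases. It had 7738 and 6988 covered bases in WT WENR and 7105, 6669 and 7010 in AHR KO WENR. In d4 ENR it had 3827, 8507 and 9928 bases in WT and 11539 and 12840 in AHR KO. All d4 ENR libraries but WT replicate 1 lay above all WENR libraries. The log2 difference was -0.09 ± 0.34 in WT and 0.80 ± 0.34 in AHR KO (limma, adjusted p = 0.80 and 0.16). Without WT d4 ENR replicate 1, which has the shortest peak list, the WT difference was 0.31 ± 0.11 (limma, adjusted p = 0.040). The AHR KO difference, which does not use that library, stayed at 0.80. Its SE, which draws on the spread of all groups, fell to 0.10 (limma, adjusted p = 0.0028). After centring with all libraries Thrb was higher in AHR KO (1.07 ± 0.25) and had a difference of 0.57 ± 0.25 in WT (limma, adjusted p = 0.029 and 0.11). With all lists held to the same number of peaks the AHR KO difference was not called (0.46 ± 0.21, limma, adjusted p = 0.25). Thrb, Ppara, Nr1h3, Nr4a2, Nr4a3, Esr2, Nr2e3 and Rxrb were picked out after their values were seen.

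A peak in at least 3 d4 ENR and no WENR library was found at 9 of the 275 regions (3.27%), against 2.1% of regions at coding genes, a pattern defined after the data were seen. Of these 9 regions 6 were in introns of Thrb, which held 22 of the 275 regions, and the others were at Nr3c2, Nr5a2 and Ppara, 1 each. The Thrb region at chr14:17756739-17757182, whose sequence is given above, had a fold enrichment of 4.83 and 5.92 in WT d4 ENR replicates 2 and 3 and 3.46 and 4.28 in AHR KO d4 ENR. The region at chr14:17831610-17832031, also given above, had 3.88 and 3.97 in the same WT libraries and 3.6 and 4.13 in AHR KO. WT d4 ENR replicate 1 had no peak at either. In all, 14 of the 22 Thrb regions had a peak in at least 1 d4 ENR library and none in WENR, and 13 of these lay in introns. At the Thrb promoter (chr14:17659120-17661421) every library had a peak, with a fold enrichment from 3.57 in WT d4 ENR replicate 1 to 5 in AHR KO d4 ENR replicate 1. The converse pattern, at least 3 WENR and no d4 ENR library, was found at 22 of the 275 regions (8%), against 10.9%, and at none of Thrb. Among the 9 regions open in d4 ENR 4 held AGGTCA, 3 of them at Thrb, against 18.5% of the 1212 such regions at coding genes, and 1 held GCGTG, against 9.82%.

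**Figure D4:**
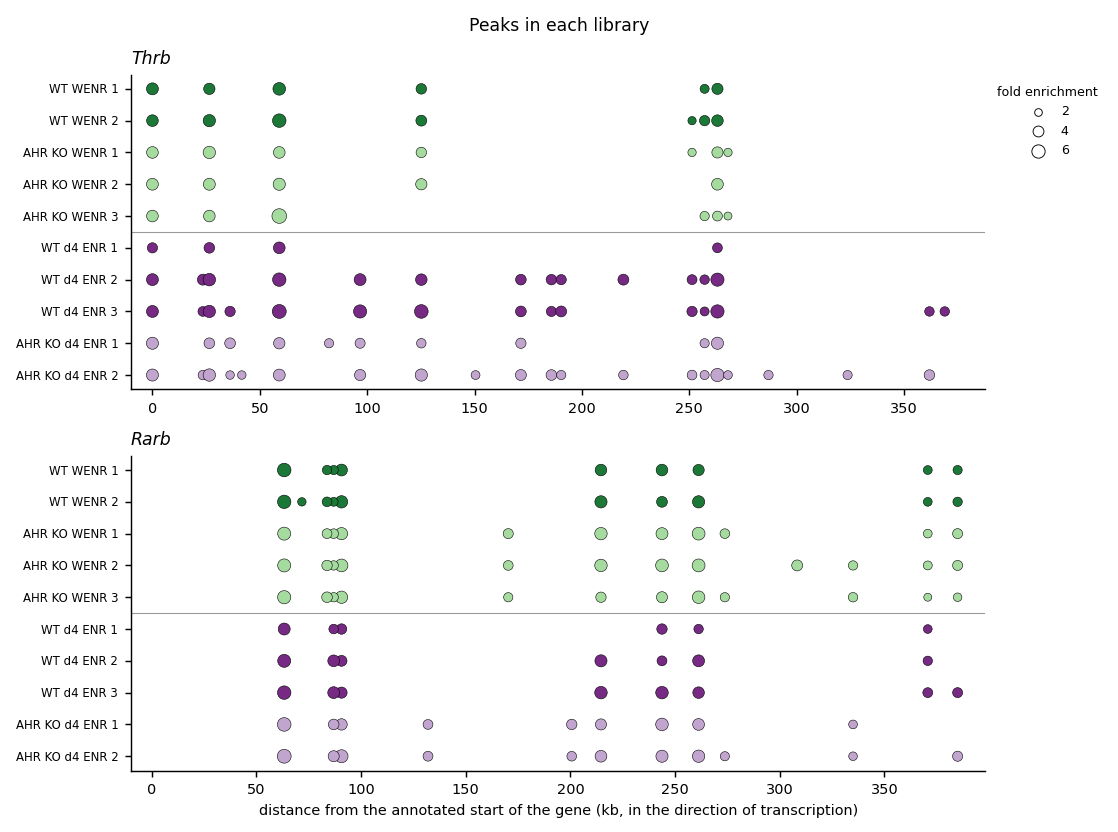
Peaks at Thrb and Rarb by distance (kb) from the annotated start of the gene, with 1 row per library and point area in proportion to fold enrichment. At Thrb, peaks beyond those shared with WENR appear in the d4 ENR rows other than WT replicate 1; Rarb has single regions that differ by genotype.

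Rxra, the common dimer partner, had 5301 and 5178 covered bases in WT WENR, 5131, 5440 and 5683 in AHR KO WENR, 2608, 4357 and 5389 in WT d4 ENR and 7208 and 8736 in AHR KO d4 ENR. Both AHR KO d4 ENR libraries lay above all others. In AHR KO, 5 of the 42 genes had both d4 ENR libraries above all WENR libraries, against 5.88% of all genes, namely Thrb, Rxra, Ppara, Nr1h4 and Nr5a2. These were also the 5 receptor genes called higher in AHR KO d4 ENR after centring. At Rxra the difference between media was -0.39 ± 0.25 in WT and 0.54 ± 0.25 in AHR KO (limma, adjusted p = 0.19 and 0.20), and after centring 0.27 ± 0.17 and 0.81 ± 0.17 (0.23 and 0.018). Leaving out WT d4 ENR replicate 1, a library outside this comparison, left the AHR KO difference before centring at 0.54. Its SE, which draws on the spread of all groups, fell to 0.12 (limma, adjusted p = 0.019). That call therefore rests on the smaller SE and not on a larger difference. With lists of equal length the AHR KO difference was not called (0.19 ± 0.18, limma, adjusted p = 0.62). In WT the genes higher after centring were Ppara, Nr1h3 (0.41 ± 0.11) and Nr2f6 (0.28 ± 0.09).

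Among the retinoic acid receptor genes, Rara had 8662 and 9448 bases in WT WENR, 9356, 8868 and 9697 in AHR KO WENR, 4184, 4867 and 7637 in WT d4 ENR and 7654 and 8219 in AHR KO d4 ENR. Rarg had 5699 and 6742, 6014, 5493 and 6211, 2505, 3216 and 4910, and 4063 and 4924 bases in the same order. All WENR libraries lay above all d4 ENR libraries at Rara, Rarb and Rarg. The 3 genes were lower in WT, with differences of -0.73 ± 0.22, -1.17 ± 0.19 and -0.82 ± 0.24 in that order. After centring Rarb alone of the 3 was called (-0.51 ± 0.12 in WT). In AHR KO their differences were -0.22 ± 0.22, -0.54 ± 0.19 and -0.38 ± 0.24. Thra was lower in WT (-0.91 ± 0.20) and had a difference of -0.19 ± 0.20 in AHR KO, and its difference from Thrb was not tested.

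Among the clock-related receptors, Nr1d1 had 5249 and 5276 bases in WT WENR, 5316, 5328 and 5382 in AHR KO WENR, 3667, 4270 and 4074 in WT d4 ENR and 4190 and 4757 in AHR KO d4 ENR. It was lower in WT (-0.38 ± 0.10), by less than the median gene, and its difference was 0.28 ± 0.11 after centring (limma, adjusted p = 0.072). Nr1d2, its paralog, had 3102 and 4535, 3325, 2847 and 3280, 1612, 1984 and 2123, and 1942 and 1999 bases in the same order. It was lower in both genotypes (-0.92 ± 0.17 and -0.62 ± 0.17) and in neither after centring. Rora, an activator that competes with these repressors, had 5327 and 6335, 5271, 4785 and 4634, 1688, 3381 and 3354, and 3477 and 4270 bases. It was lower in WT (-1.06 ± 0.27), with -0.33 ± 0.27 in AHR KO.

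Of the steroid receptors, the glucocorticoid receptor gene Nr3c1 had 5297 and 6285 bases in WT WENR, 6265, 5854 and 6369 in AHR KO WENR, 2659, 3566 and 4374 in WT d4 ENR and 5972 and 5203 in AHR KO d4 ENR. It was lower in WT (-0.70 ± 0.19) and the mineralocorticoid receptor gene Nr3c2 was not called (-0.86 ± 0.36, limma, adjusted p = 0.063). Nr3c2 had the largest number of regions, 28, and 5399, 9515 and 15968 covered bases in WT d4 ENR, 15172 and 17305 in AHR KO d4 ENR and 16308 to 18178 in WENR. Esrra, which regulates mitochondrial genes, was lower in WT (-0.67 ± 0.13) with 0.01 ± 0.13 in AHR KO. Nr2f2, a COUP-type receptor gene, had 3330 and 4938 bases in WT WENR, 5059, 4969 and 4907 in AHR KO WENR, 1340, 1500 and 2351 in WT d4 ENR and 2685 and 3735 in AHR KO d4 ENR. Its relative Nr2f6 had 4196 and 4216, 4221, 4034 and 4747, 3002, 2979 and 3647, and 4005 and 3927 bases in the same order. Both were lower in WT, by -1.18 ± 0.25 and -0.38 ± 0.12, with -0.62 ± 0.25 and -0.12 ± 0.12 in AHR KO. Nr4a1, an immediate-early orphan receptor, had 1339, 3804 and 2818 bases in WT d4 ENR, 5142 and 4398 in AHR KO d4 ENR and 6265 to 8742 in WENR. Its difference was -1.45 ± 0.35 in WT and -0.75 ± 0.35 in AHR KO (limma, adjusted p = 0.00856 and 0.191). Of the genes not described singly, Esr1, Nr1h2, Nr1i3, Nr2c1 and Nr5a1 were lower in WT, from -0.34 ± 0.11 at Nr2c1 to -1.65 ± 0.46 at Nr5a1, and none was called in AHR KO. Nr2f1, which entered through WENR alone, had 847 to 2841 bases in WENR, 340 in WT d4 ENR replicate 3, 563 in AHR KO d4 ENR replicate 2 and none in the other d4 ENR libraries.

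AHR KO was next set against WT in d4 ENR. Covered bases were higher in AHR KO at 11 of the 42 receptor genes and lower at none, where 16.1% of all genes were higher. At 27 of the 42 the 2 AHR KO values exceeded the 3 WT values, as at 57.1% of all genes. The median difference was 0.54 over the receptor genes and 0.38 over all genes. The 8 largest were Nr2e1 (2.06 ± 0.56, limma, adjusted p = 0.043), Rxra (0.97 ± 0.25, 0.0397), Rarb (0.82 ± 0.19, 0.029), Nr2c2 (0.76 ± 0.22, 0.0485), Thra (0.75 ± 0.20, 0.043), Nr1h4 (0.69 ± 0.16, 0.031), Esrra (0.66 ± 0.13, 0.021) and Nr3c1 (0.66 ± 0.19, 0.0499). Nr5a2 (0.60 ± 0.17), Esrrb (0.59 ± 0.15) and Nr4a3 (0.54 ± 0.10) were the other 3. With lists of equal length, where Nr2e1 was not tested, Rxra (0.32), Thra (0.37), Nr3c1 (0.31), Rarb (0.75) and Esrrb (0.51) were not called and Nr2c2 turned to -0.19, while Nr1h4, Esrra, Nr5a2 and Nr4a3 stayed called. With libraries centred none of the 42 was called by limma, where 1.63% of all genes were. An unadjusted p under 0.05 was then found at 11 of the 42, and the share of all genes at that level is not given. The differences at Rxra and Rarb were then 0.58 ± 0.17 and 0.43 ± 0.12. No receptor gene was called without AHR KO d4 ENR replicate 1 or without replicate 2. The number also moved when another single library was left out, and reached 31 without WT d4 ENR replicate 3. The share of all genes called in that fit is not given, so 31 is not read as particular to the receptor genes.

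Nr2e1, an orphan receptor of neural progenitors, had few bases: 0, 0 and 507 in WT d4 ENR, 1433 and 793 in AHR KO d4 ENR, 430 and 816 in WT WENR and 961, 948 and 1515 in AHR KO WENR. Nr2c2, an orphan testicular receptor gene, had 1779, 2249 and 3445 bases in WT and 4165 and 4271 in AHR KO d4 ENR, against 4260 to 4577 in WENR. At Rarb the values in d4 ENR were 3006, 3658 and 4989 in WT and 7237 and 6550 in AHR KO, below the 8316 to 10856 of WENR. At Esrra AHR KO d4 ENR (4037 and 3800 bases) lay within the range of WENR (3770 to 4135), and WT d4 ENR (2020, 2842 and 2422) lay below it. Thra had 4011, 6159 and 6619 bases in WT and 9965 and 8745 in AHR KO d4 ENR, against 9801 to 11474 in WENR. At each of these genes the 2 genotypes did not overlap in d4 ENR. The window of Esrra touches 4 other coding genes, and those of Rarb, Nr2e1, Nr2c2 and Thra touch 1 each. Their counts can therefore hold peaks of neighbours too.

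**Figure D5:**
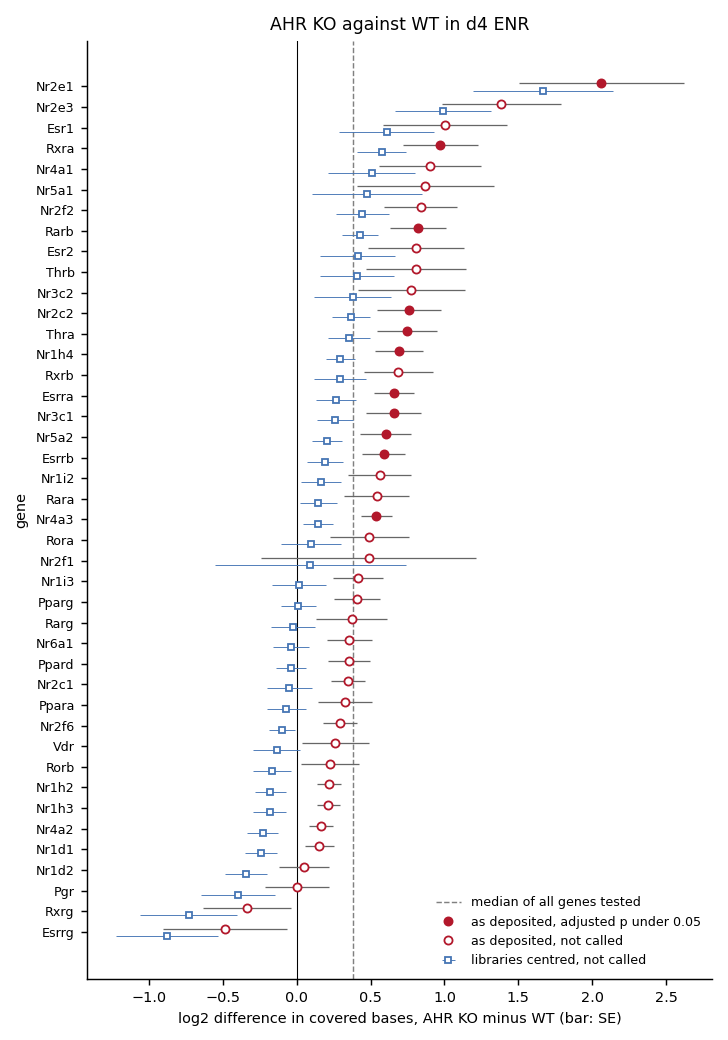
Log2 difference in covered bases between AHR KO and WT in d4 ENR at the 42 tested receptor genes, with SE bars, from libraries as deposited (circles; filled where the adjusted p was under 0.05) and centred on their median gene (squares). The 11 filled circles lie between 0.54 and 2.06; the dashed line marks the median of all genes, 0.38, and no centred value was called.

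In WENR no receptor gene differed between genotypes by the limma test, none had an unadjusted p under 0.05, and 0.0122% of all genes were called. The median difference over the receptor genes was 0.01. The differences at Rxra (0.05 ± 0.25), Rarb (0.19 ± 0.19), Esrra (-0.02 ± 0.13) and Thra (0.03 ± 0.20) were within their SE or close to it. The difference between genotypes in the effect of the medium was called at no receptor gene and at 0.914% of all genes. It had an unadjusted p under 0.05 at 11 receptor genes, and the share of all genes at that level is not given. With lists of equal length it was called at Nr5a2, Nr4a3 (0.55 ± 0.10) and Vdr (0.66 ± 0.14) of 36 genes tested (limma, adjusted p = 0.021, 0.033 and 0.046), against 3.48% of all genes, so that the calls at these 3 genes turn on the treatment of list length.

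By fold enrichment over the local background, peak height gave fewer differences than covered bases. By pileup scaled to fragments, another measure of height, many more of these genes were called, as given below. The highest fold enrichment in the window was tested at the 37 receptor genes, of 14235 genes, with a peak in all libraries. Averaged over genotypes, 5 of 37 differed between media, against 14.3% of all genes. Esr2, the estrogen receptor beta gene, was higher in d4 ENR (0.63 ± 0.12 on the log2 scale, limma, adjusted p = 7.926e-05), at 3.11, 4.57 and 4.86 in WT and 3.89 and 6.4 in AHR KO against 2.71 to 3.07 in WENR. All d4 ENR values lay above all WENR values, while its covered bases were lower in WT (-1.08 ± 0.32). With lists of equal length its covered bases were instead higher in d4 ENR in both genotypes (3.19 ± 0.28 and 3.96 ± 0.28), so that this contrast depends on list length. The difference between genotypes in WENR was then 4.4e-15, as where no WENR library keeps a peak at Esr2. The size of the 2 values therefore depends on the 200 bases that were added, and no test is given for them. Rxrb was also higher (0.37 ± 0.11). Nr2e3 (-0.52 ± 0.12), Nr6a1 (-0.48 ± 0.13) and Rora (-0.45 ± 0.15) were lower. At Nr6a1 the highest fold enrichment was 6.28 to 6.84 in WENR, 3.43, 4.49 and 4.60 in WT d4 ENR and 4.73 and 6.19 in AHR KO d4 ENR. At Thrb and Rxra the difference in height between media in AHR KO was -0.07 ± 0.19 and -0.10 ± 0.18 (limma, adjusted p = 0.998 at both). With libraries centred, Rxra was higher in d4 ENR on average over genotypes (0.196 ± 0.059, limma, adjusted p = 0.016), by 0.43 ± 0.08 in WT and with -0.04 ± 0.08 in AHR KO. Between AHR KO and WT in d4 ENR no receptor gene was called by height, 2 had an unadjusted p under 0.05, and 0.0843% of all genes were called.

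Coregulators, the proteins that receptors recruit to activate or silence genes, were described as a list of 14, chosen like the receptors by symbol. In WT 13 were lower in d4 ENR and none higher, where 66.9% of all genes were lower, with a median of -0.83 against -0.67 for all genes. In AHR KO Ncoa2 and Tbl1x were lower, 2 of 14 where 13.4% of all genes were. In d4 ENR Nrip1 and Tbl1x were among the coregulator genes higher in AHR KO. After centring 4 were lower and Ep300 was higher in WT. Averaged over genotypes, the coactivator gene Ncoa2 (-1.27 ± 0.19), Tbl1x (-1.19 ± 0.14), part of the corepressor complex, and the corepressor gene Nrip1 (-1.01 ± 0.15) moved most, and the 3 were also lower after centring. Of 26 genes known as targets of the receptors 25 were tested: 18 were lower in WT and 1, Abcb1a, in AHR KO, against 66.9% and 13.4% of all genes, and 5 were higher in AHR KO than in WT in d4 ENR, against 16.1%. The shares in WT and between genotypes lay near those of all genes. The largest differences between media were at Abcb1a (-1.96 ± 0.14), a PXR-regulated efflux pump, Abca1 (-1.15 ± 0.26), an LXR-regulated cholesterol exporter, and Per1 (-0.94 ± 0.15), a clock gene induced by glucocorticoids. At Abca1 peaks covered 1488 and 1479 bases in WT WENR, 1643, 1586 and 1519 in AHR KO WENR, 0, 339 and 288 in WT d4 ENR and 1298 and 1577 in AHR KO d4 ENR, so that WT d4 ENR lay apart from the other groups. After centring Abca1 was the only one of the 25 called between genotypes in d4 ENR (1.73 ± 0.31, limma, adjusted p = 0.033), and the difference between genotypes in the effect of the medium was not called (1.65 ± 0.44, limma, adjusted p = 0.25).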

How the data were processed

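The 10 ATAC-seq libraries were used, each as the list of broad peaks that the authors deposited. Per the labels and the study's methods, reads went through nf-core/atacseq with BWA on GRCm38, and per the file headers peaks were called by MACS 2.2.7.1 for each library alone, without a control, with a q threshold of 0.1 for the broad and 0.05 for the narrow level and a local background taken over 10000 bp. Each deposited peak has a pileup (signal, in fragments, not scaled for depth), −log10 p and −log10 q values, and a fold enrichment, the ratio of the pileup to the local background. No reads were analysed here. The DESeq2 test of the study was therefore not run, no counting interval is given, and depth acts through list length.

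Bases under peaks were summed over each GENCODE M21 coding gene with 5 kb on each side, and log2(bases + 200) was fitted with limma 3.58.1 (R 4.3.3, Python 3.11.15; group means, trended spread, Benjamini-Hochberg over all 16403 genes averaging at least 200 bp, threshold 0.05). The log2 highest fold enrichment was fitted likewise. Centred values had the median gene of each library subtracted. Log2 differences understate changes at low values. Named genes were those called in both genotypes or between genotypes (up to 8 of each), 18 taken whatever their values, and up to 3 coregulators and targets. Members, lists and rules were chosen with earlier results of these data known. Simulated data had the spread within groups of all 10 libraries, shuffled over genes, and no shift in list length. For WT d4 ENR against WT WENR, 59 of 100 genes changed by a log2 of 1 were called. Of genes changed by a log2 of 2, 83 of 100 were called, and 11 unchanged genes were called too. Alternatives were equal list lengths, −log10 q of at least 5, other windows, pseudocounts and filters, a replicate block and leaving out each library.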

Additional observations from a re-analysis of the deposited data

Results flagged for a closer look

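Nr1h4 and Nr5a2 stood out because the order of their libraries by covered bases was opposite in the 2 genotypes. In AHR KO the log2 differences between media were within their SE, and in WT they lay near that of the median gene. After centring neither gene was called in WT, and both were called higher in AHR KO d4 ENR. Every WT d4 ENR library had fewer covered bases than both WT WENR libraries. Both AHR KO d4 ENR libraries had more than all AHR KO WENR libraries. The difference between genotypes in the log2 effect of the medium was 0.81 at Nr1h4 and 0.77 at Nr5a2, and neither passed the limma test (adjusted p = 0.13 and 0.16 over 16403 genes). With lists of equal length Nr5a2 passed it (0.92, limma, adjusted p = 0.021). The same order was found at 367 of the 16403 genes. No test for an outlying library was run within these groups of 2 and 3. Fits that left out each library in turn are given below as counts of genes called, not for these 2 genes.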

How the results depend on the processing

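Counts of receptor genes called moved with how list length was treated. The share of all genes called is not given for these alternatives, so the counts are not read as particular to the receptor genes. The 36 in WT and the 7 in AHR KO include genes that entered through WENR alone. Without such genes they were 32 and 4 of 38. The calls between media with lists of equal length include Esr2 in both genotypes, whose difference is described without a test. In WT, the 36 genes called between media became 11 with libraries centred, 18 with lists of equal length, 5 with both and 12 centred without WT d4 ENR replicate 1, and 17 to 41 when 1 library was left out. In AHR KO, the 7 became 2 with lists of equal length, with or without centring, 4 at −log10 q of at least 5, 4 with a replicate block of lines and 11 centred without WT d4 ENR replicate 1, and 5 to 13 with 1 library left out. The 11 genes called between genotypes in d4 ENR became 0 centred, with or without WT d4 ENR replicate 1 or equal lengths, 6 with lists of equal length, 4 at −log10 q of at least 5, 7 with a pseudocount of 50 bp and 5 over the gene body alone, and 0 to 31 with 1 library left out. In WENR 0 were called in every alternative. The interaction was called at 3 genes (Nr5a2, Nr4a3 and Vdr) with lists of equal length and 2 at −log10 q of at least 5, and at 0 to 18 with 1 library left out, 18 being without WT d4 ENR replicate 3. By fold enrichment, the 5 called between media became 14 centred, 36 by pileup scaled to fragments and 8 by the length-weighted mean (2 to 13 with 1 library left out, 13 being without WT d4 ENR replicate 1), and the 0 between genotypes became 4 centred and 29 by scaled pileup (0 to 2).

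No pairing by replicate number was detected (correlations of deviations from -0.0444 to 0.0163, replicates 1 and 2). With groups of 2 and 3 libraries such correlations cannot show that the samples were unpaired. With a replicate block 39 genes were called in WT, 6 in AHR KO, 20 between genotypes in d4 ENR, 0 for the interaction and 6 by fold enrichment.

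Regions found in WENR alone (11) became 21 when 50% of the region had to be covered and 1 with equal lists (11 to 16 with 1 library left out). Those of all d4 ENR libraries alone (0) became 3 with equal lists (0 to 2). Those of AHR KO in d4 ENR (9) became 3 with equal lists (9 to 26, with 26 and 18 without AHR KO d4 ENR replicates 1 and 2 and 19 without WT d4 ENR replicate 3). The single WT region in d4 ENR became 0 at 50% and at −log10 q of at least 5 (1 to 3). AHR KO regions in WENR (2) became 4 at 50%, 1 with equal lists and 1 at −log10 q of at least 5 (2 to 8), WT regions in WENR (3) ran from 3 to 9 with 1 library left out, and regions of all 10 libraries (95) became 45 at 50% and 57 at −log10 q of at least 5 (95 to 122).

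Log2 differences of named genes that passed the test and reversed were as follows. Centred, in WT: Nr1d1 0.28, Nr1h3 0.41, Nr2f6 0.28, Nr4a2 0.20, Nr4a3 0.07 and Nr5a2 0.0013. With lists of equal length: Esr2 3.19 and Nr2c2 0.38 in WT, Nr1d2 0.037 in AHR KO (also 0.037 at −log10 q of at least 5) and Nr2c2 -0.19 between genotypes in d4 ENR. The size at Esr2 depends on the 200 bases that were added, here and in AHR KO. By fold enrichment: Nr6a1 0.069 by the length-weighted mean and Rxrb -1.15 by pileup scaled to fragments. The cause of these changes was not tested, other than that equal lists hold fewer peaks. Of the other alternative values for named genes that passed the test, 717 kept direction and call and 232 kept direction and lost the call. Other values reversed too, among them, with lists of equal length, Rarb 0.34, Rora 0.11, Rara 0.016, Ppara -0.07, Nr3c2 0.033, Nr4a3 0.025 and Esr2 3.96 in AHR KO, and Thrb 0.07 and Nr2e3 0.86 in WT.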
